A study of Mus musculus with 12 samples.

Results

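The cytosolic ribosomal proteins are represented by 47 genes of 18193 measured in sorted mouse thymocytes, 24 with symbols of the large ribosomal subunit (Rpl) and 23 with symbols of the small subunit (Rps). They were taken as every gene whose symbol starts with Rpl or Rps and a digit, from probe sets that carry only 1 gene symbol, without the ribosomal S6 kinases (Rps6k) and without pseudogene symbols. Values were averaged over the probe sets of each gene, and the 47 genes have 102. Only 1 probe set stands behind each of 24 genes, among them Rpl8, Rpl12, Rpl37, Rps25 and Rps27. The rule used no measured value. It also takes in paralogs of ribosomal proteins (Rpl22l1, Rpl39l, Rpl3l, Rpl7l1, Rps27l and Rps4l) and Rps19bp1, which encodes a binding partner of the ribosomal protein Rps19 and no structural part of the ribosome.

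Thymocytes of untreated C57BL/6 mice had been sorted into 4 subsets, and total RNA taken with Trizol straight after isolation was read on 3 Affymetrix arrays per subset. DN (double-negative) cells lacked CD4, CD8a and TCRb, DP (double-positive) cells carried both CD4 and CD8a, and CD4SP and CD8SP (single-positive) cells carried only the named coreceptor together with high TCRb. The sources used here give neither the age of the mice nor whether the arrays of a subset represent different animals; the p-values below therefore measure only the spread between these arrays. Each deposited value is a log ratio, read here as log2, to the mean of the 3 DP arrays: DP lies at 0 for every gene, and a level cannot be compared between genes or read as presence or absence.

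The ribosome is built in the nucleolus from ribosomal RNA, made largely by RNA polymerase I, and from ribosomal proteins that are imported from the cytoplasm. Most messenger RNAs for ribosomal proteins begin with a run of pyrimidines, the 5′ terminal oligopyrimidine (TOP) motif, through which the kinase complex mTORC1 and the RNA-binding protein Larp1 control their translation; the arrays measured the RNA and not its translation. In the thymus, DN cells divide strongly after they have rearranged the Tcrb gene, most DP cells are small resting cells that undergo selection, and the single-positive cells are the selected progeny. Mice without Rpl22 have a block in the development of αβ T cells.

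Of the 47 genes, 41 matched an entry in the RefSeq promoter table (GRCm38.p6). The 8 windows printed here belong to genes on which the results turn, and each covers 35 bases before the annotated start to 15 bases from it, 5′ to 3′ on the gene's strand. Capitals mark every run of at least 8 C or T. Where a gene has several annotated starts, only the first along its strand was used. The first 6 genes carry at least 1 such run, and Rps19 and Rpl37 have none in this window. In Rps25 and Rps27l the runs end before the annotated start. A run in this window, or the lack of one, does not show whether the messenger RNA begins with a TOP motif.
Rpl22l1, chr3:28805473-28805522, strand plus: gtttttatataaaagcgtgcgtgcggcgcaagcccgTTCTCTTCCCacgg
Rpl14, chr9:120571482-120571531, strand plus: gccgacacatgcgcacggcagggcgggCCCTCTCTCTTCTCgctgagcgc
Rps25, chr9:44407679-44407728, strand plus: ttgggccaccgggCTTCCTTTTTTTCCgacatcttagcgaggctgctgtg
Rps18, chr17:33955651-33955700, strand minus: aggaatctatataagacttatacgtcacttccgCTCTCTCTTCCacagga
Rps27, chr3:90213634-90213683, strand minus: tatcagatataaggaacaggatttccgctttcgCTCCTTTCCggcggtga
Rps27l, chr9:66946051-66946100, strand plus: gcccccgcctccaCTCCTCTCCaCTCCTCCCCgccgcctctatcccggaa
Rps19, chr7:24884557-24884606, strand plus: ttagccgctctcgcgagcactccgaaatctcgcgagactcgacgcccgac
Rpl37, chr15:5116578-5116627, strand plus: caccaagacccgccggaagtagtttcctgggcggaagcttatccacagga

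A run of at least 8 C or T lay in this window in 20 of 41 genes (48.8%), against 20.6% of the 27025 genes in the table. In the full window of 300 bases (250 before the start), the letters CCGGAA, the core of sites for ETS-family factors, were found on either strand in 24 of the 41 genes (58.5%, against 15.2% of all genes). The letters AAGATGGC, a core of YY1 sites, were present on either strand in only 4 of the 41 genes (9.76%, against 2.87%). CTTTCC was present on the gene's strand in 11 of the 41 (26.8%, against 14.1%) and can overlap a pyrimidine run. The E-box CACGTG on either strand (3 genes, 7.32% against 7.24%) and TATAAA on the gene's strand (4 genes, 9.76% against 8.88%) were about as frequent as in all genes. These matches describe letters in the windows only, and windows of different genes differ in base composition.

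The labels were checked against marker genes. All 6 DP markers lay higher on the 3 DP arrays than on the other 9, the 7 DN markers were each called lower in DP than in DN, and 7 and 6 of 7 single-positive markers were called higher in CD4SP and CD8SP than in DP. The DN arrays also carried more RNA of other cell types than the DP arrays did: relative to DP, the mean of 15 myeloid and dendritic markers lay between 2.37 and 3.98 on the DN arrays, that of 8 NK and innate lymphoid markers between 1.76 and 2.93, that of 4 γδ T cell markers between 2.35 and 2.92, and that of 8 B cell markers between 0.50 and 1.85. On the DP arrays the same means lay between -0.15 and 0.20. The B cell mean in DN was carried mostly by Ms4a1 and Cd79a (group means 4.96 and 3.04), with Ighm at 0.17 and Pax5 at -0.17. The median of that list was -0.03 to 1.38 on the DN arrays. Markers of thymic stroma and of erythroid cells had medians of -0.21 to -0.01 and -0.28 to -0.04 there. CD8SP replicate 1 and DN replicate 1 had the lowest array weights of the 12 (0.28 and 0.53), and within every subset replicate 1 had the highest value of Hspa1b, a heat shock gene.

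Ribosomal protein RNA was lower in DP than in DN cells. Of the 47 genes, 29 were called lower in DP (limma, Benjamini-Hochberg adjusted p under 0.05 over all genes), against 18.8% of all genes, and 1 was called higher, against 17.8%. The median difference, DP minus DN, was -0.34 on the log2 scale over the 47 genes and 0.04 over all genes. On 37 genes the 3 DP arrays all lay below the 3 DN arrays (24% of all genes), and on 2 they all lay above (25.8%). Large and small subunit genes gave like counts: 16 of 24 Rpl symbols and 13 of 23 Rps symbols were called lower, with medians of -0.34 and -0.31. The means of the myeloid, NK, γδ and B cell markers listed above also lay higher on the DN arrays. What part these markers have in the difference was not tested. In these bulk samples fewer cells of a type and less RNA per cell cannot be told apart.

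**Figure D1:**
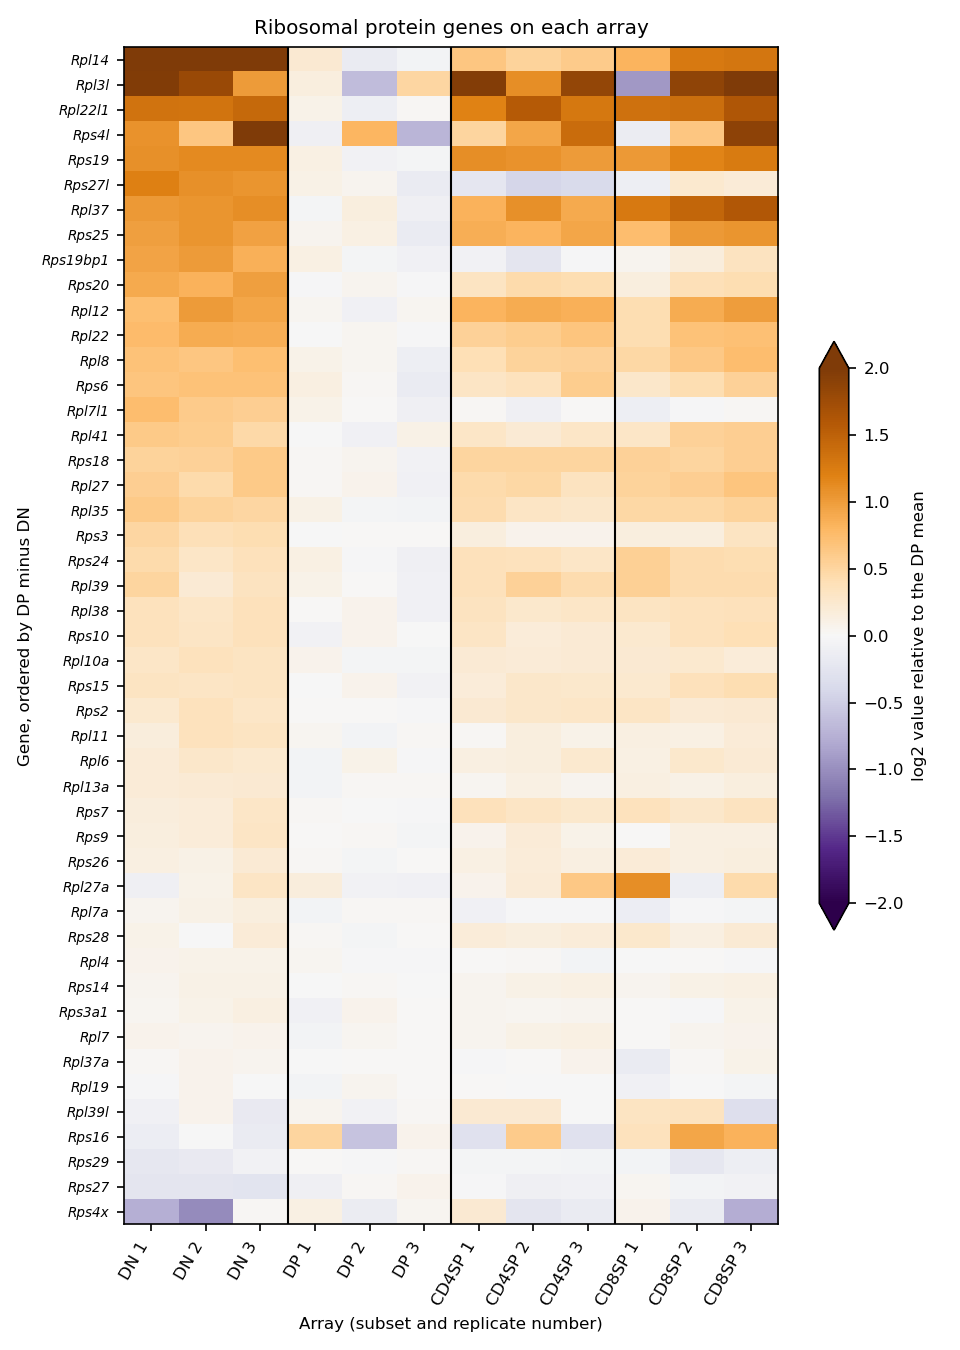
Values of the 47 ribosomal protein genes (rows, ordered by DP minus DN) on each of the 12 arrays (columns), as log2 relative to the DP mean. Most rows are near 0 in the DP columns and above 0 in DN, CD4SP and CD8SP, from Rpl14 at the strong end to rows such as Rpl19 that are near 0 on all arrays.

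From DP to the single-positive subsets the genes lay higher again. In CD4SP, 21 genes were called higher than in DP (16.4% of all genes) and 1 lower (16.2%), with a median difference of 0.23 against 0.04 over all genes. In CD8SP, 23 were called higher (18.2%) and 0 lower (20.9% of all genes; 0 at an unadjusted limma p under 0.05), with a median of 0.31 against 0. These comparisons share the 3 DP arrays with each other and with that of DP and DN, so they are no independent evidence of one another. All 3 DP arrays lay below all 9 others on 27 of the 47 genes, against 8.22% of all genes, and above all 9 on 1 gene, Rps29, against 9.75%. Markers of other cell types also lay higher than in DP on some of these arrays. The mean of the NK and innate lymphoid markers was 0.23 to 0.45 in CD4SP and 1.93 to 2.01 in CD8SP, that of the γδ markers 0.47 to 0.58 and 0.15 to 0.53, that of the myeloid markers 0.15 to 0.36 and -0.14 to 0.26, and that of the B cell markers -0.69 to -0.46 and -0.13 to 0.04. The NK mean in CD8SP was carried by Nkg7, Klrd1 and Il2rb (group means 7.52, 5.90 and 4.36), with Tyrobp at -0.09 and Gzma at -2.96. The median of that list was 0.41 to 0.50 on the CD8SP arrays. Likewise the B cell mean in CD4SP was carried by Cd79b (-4.55), and the median of that list was -0.05 to 0 there. The γδ mean was carried by Cd163l1 (1.84 in CD4SP and 1.30 in CD8SP). Sox13, Trgv4 and Blk had group means of 0.07, 0.26 and -0.03 in CD4SP and 0.08, 0.05 and -0.275 in CD8SP. The median of the γδ list was 0.07 to 0.24 in CD4SP and -0.07 to 0.32 in CD8SP. The part of these markers in the difference was not tested.

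**Figure D2:**
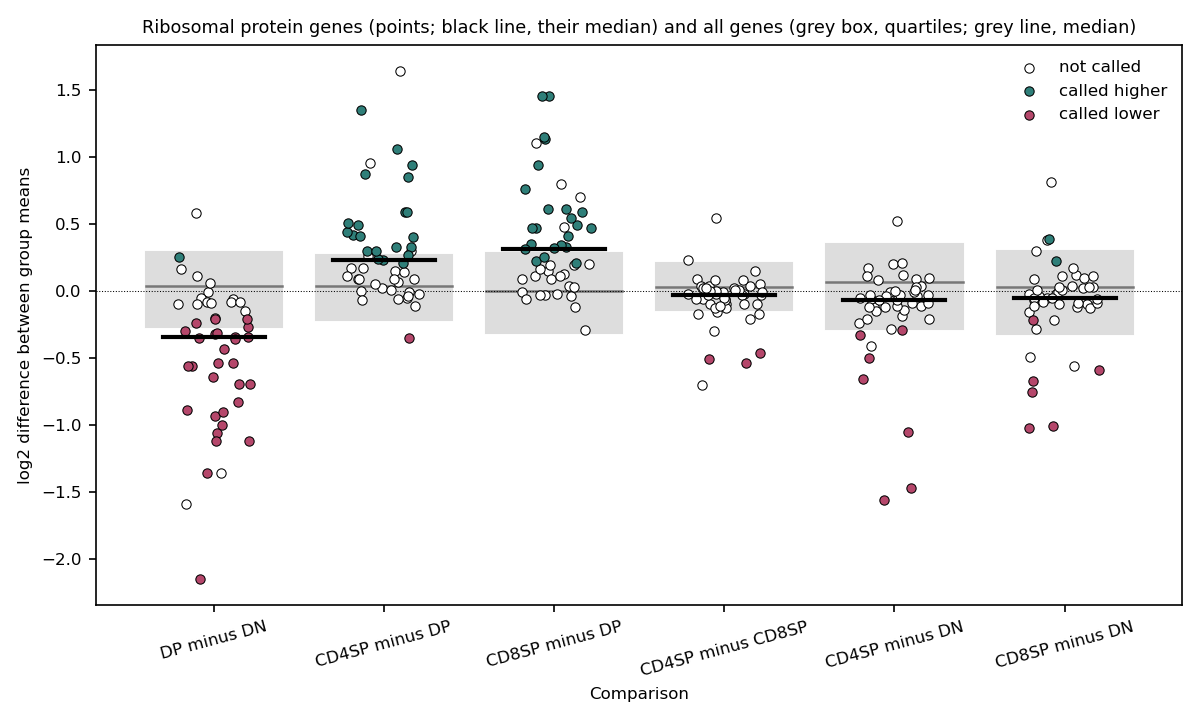
Differences of group means (log2) for the 47 ribosomal protein genes in each of the 6 comparisons, coloured by call, beside the quartiles and median of all 18193 genes. The median of the 47 genes is -0.34 in DP minus DN, 0.23 and 0.31 in CD4SP and CD8SP minus DP, and near 0 in the other 3 comparisons.

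Among the large subunit genes, Rpl14, which encodes a protein of the 60S subunit, differed most between DN and DP. Its values were 2.29, 2.12 and 2.05 on the DN arrays, 0.23, -0.17 and -0.06 in DP, 0.66, 0.52 and 0.60 in CD4SP, and 0.82, 1.27 and 1.30 in CD8SP. The 4 subsets did not overlap, in the order DN, CD8SP, CD4SP, DP. Rpl14 fell by 2.15 ± 0.14 (SE, 3 arrays per group) from DN to DP, a 4.45-fold difference with a limma adjusted p of 1.22e-06. It rose by 0.59 ± 0.14 from DP to CD4SP (adjusted p = 0.00819) and by 1.13 ± 0.14 to CD8SP (adjusted p = 9.29e-05), and both of these calls were lost under quantile normalization. Its value rests on 1 probe set.

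Rpl37, a small zinc-binding protein of the large subunit, read 1.02, 1.05 and 1.11 in DN, -0.03, 0.14 and -0.11 in DP, 0.83, 1.08 and 0.91 in CD4SP, and 1.27, 1.47 and 1.60 in CD8SP. DP lay below every other array and CD8SP above every other array, while DN and CD4SP overlapped. It fell by 1.06 ± 0.11 from DN to DP (limma adjusted p = 2.26e-05) and rose by 0.94 ± 0.11 to CD4SP (adjusted p = 5.38e-05) and by 1.45 ± 0.11 to CD8SP (adjusted p = 2e-06).

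Rpl12 forms part of the base of the ribosomal stalk. Its values were 0.72, 1.01 and 0.94 in DN, 0.04, -0.08 and 0.04 in DP, 0.82, 0.88 and 0.85 in CD4SP, and 0.41, 0.89 and 0.99 in CD8SP. Every DP array lay below the others, and the other 3 subsets overlapped. Rpl12 was lower in DP than in DN by a log2 difference of -0.89 ± 0.14 (limma adjusted p = 0.000459), and it rose by 0.85 ± 0.14 to CD4SP and by 0.76 ± 0.14 to CD8SP (adjusted p = 0.000673 and 0.00122). Rpl8, which lies close to the peptidyl transferase centre, gave -0.69 ± 0.09 in DP minus DN, 0.49 ± 0.09 in CD4SP minus DP and 0.61 ± 0.09 in CD8SP minus DP, all called.

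Rpl22 and its paralog Rpl22l1 moved the same way. Rpl22 binds RNA and is known to repress Rpl22l1, which can take its place in the ribosome. Rpl22 read 0.75, 0.89 and 0.87 in DN, -0.01, 0.04 and -0.03 in DP, 0.53, 0.59 and 0.66 in CD4SP, and 0.42, 0.70 and 0.71 in CD8SP. Rpl22l1 read 1.33, 1.33 and 1.43 in DN, 0.09, -0.12 and 0.03 in DP, 1.2, 1.57 and 1.30 in CD4SP, and 1.36, 1.39 and 1.62 in CD8SP. Both had DP below all other arrays; for Rpl22 the DN arrays lay above all others, whereas for Rpl22l1 the DN and single-positive arrays overlapped.

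Rpl22 fell by 0.83 ± 0.09 from DN to DP (limma adjusted p = 3.89e-05), and Rpl22l1 fell by 1.36 ± 0.11 (adjusted p = 5.59e-06). To CD4SP, Rpl22 rose by 0.59 ± 0.09 and Rpl22l1 by 1.35 ± 0.11. To CD8SP the rises were 0.61 ± 0.09 and 1.45 ± 0.11. The 3 probe sets of Rpl22 gave DP minus DN differences from -1.55 to -0.24, all called lower; with only the probe set of smallest spread, neither rise of Rpl22 was called. Rpl22l1 has 1 probe set.

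**Figure D3:**
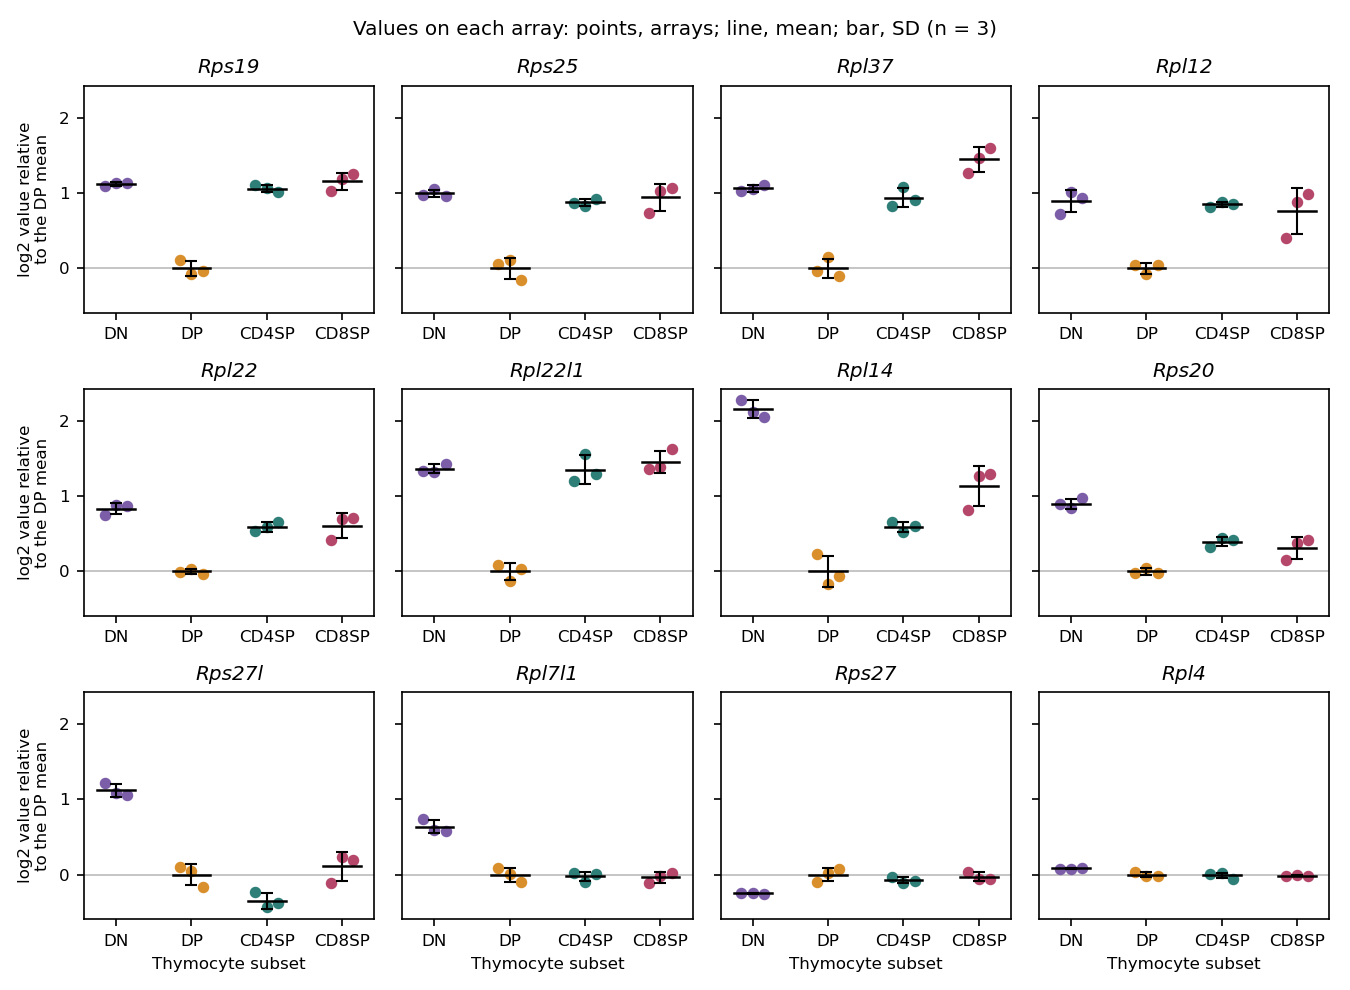
Log2 values relative to the DP mean on each array for 12 ribosomal protein genes (points, arrays; line, mean; bar, SD, n = 3). Rps19, Rps25, Rpl37, Rpl12, Rpl22 and Rpl22l1 are low on the DP arrays and higher in the other subsets, Rps27l and Rpl7l1 are high on the DN arrays, and Rpl4 is near 0 on all arrays.

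Rps19, which takes part in the maturation of the 40S subunit and is the gene most often mutated in Diamond-Blackfan anaemia, had the lowest adjusted p of the small subunit genes in DP minus DN. It read 1.09, 1.14 and 1.13 in DN, 0.11, -0.08 and -0.04 in DP, 1.10, 1.06 and 1.01 in CD4SP, and 1.03, 1.18 and 1.25 in CD8SP. The DP arrays lay below every other array, and the other 3 subsets overlapped. Rps19 fell by 1.12 ± 0.08 from DN to DP (limma adjusted p = 2.34e-06) and rose by 1.06 ± 0.08 to CD4SP (adjusted p = 3e-06) and by 1.15 ± 0.08 to CD8SP (adjusted p = 1.48e-06). Its value rests on 1 probe set.

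Rps25, a small subunit protein needed for initiation at some viral internal ribosome entry sites, read 0.98, 1.05 and 0.96 in DN, 0.05, 0.11 and -0.16 in DP, 0.87, 0.83 and 0.92 in CD4SP, and 0.74, 1.03 and 1.06 in CD8SP. Again DP lay below all other arrays. The differences were -1.0 ± 0.10 in DP minus DN, 0.87 ± 0.10 in CD4SP minus DP and 0.94 ± 0.10 in CD8SP minus DP (limma adjusted p = 2.76e-05, 7.13e-05 and 3.56e-05). Rps18, of the small subunit head, had 6 probe sets. It gave -0.56 ± 0.07, 0.51 ± 0.07 and 0.54 ± 0.07 in the same order, all called, with single probe sets from -1.37 to -0.31 in DP minus DN.

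Rps20, also of the small subunit head, stayed lower in the single-positive subsets than in DN. It read 0.89, 0.84 and 0.97 in DN, -0.03, 0.05 and -0.02 in DP, 0.33, 0.44 and 0.42 in CD4SP, and 0.15, 0.38 and 0.41 in CD8SP. DN lay above and DP below all other arrays. Its 4 probe sets disagreed in size, from -1.94 to -0.09 in DP minus DN, and 2 of them were called. With only the probe set of smallest spread the call in DP minus DN was lost, and the differences from DN turned to 0.12 in CD4SP and 0.16 in CD8SP.

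Of 11 measured genes that are mutated in Diamond-Blackfan anaemia, an inherited failure of red cell production, 7 were called lower and 1 higher in DP than in DN (18.8% and 17.8% of all genes; median -0.27), and 6 and 6 were called higher in CD4SP and CD8SP than in DP (16.4% and 18.2%). Of 5 measured genes whose proteins line the exit of the peptide tunnel, 4 were called lower in DP than in DN and 4 higher in each single-positive subset than in DP, to be read against the same shares. Both lists were chosen with earlier results of these data known, and the counts describe these genes only.

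Of the 47 genes, 17 were called in none of the 6 comparisons, and on 9 of these the 4 group means lay within 0.2 log2 units of one another. Rpl19 had group means from -0.04 to 0.01, and Rpl4, Rpl7, Rpl7a, Rpl37a and Rps3a1 also belong to the 9. Of the other members of the 9, Rps14 and Rps26 had all 3 DP arrays below all other arrays, and Rps29 had them above. For Rpl19, DP minus DN was -0.01 ± 0.07; a p above the threshold does not show equal levels. For Rps16, Rpl27a, Rps4x, Rpl3l and Rps4l, by contrast, the spread was wide, with a largest SD within a subset of 0.55, 0.61, 0.54, 1.77 and 1.03.

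Rps27 and Rps29, both small zinc-binding proteins of the small subunit, had differences of the other sign. Rps27 read -0.25, -0.24 and -0.26 in DN, -0.10, 0.02 and 0.07 in DP, -0.03, -0.11 and -0.08 in CD4SP, and 0.04, -0.05 and -0.06 in CD8SP. DN lay below all other arrays. Rps27 rose by 0.25 ± 0.07 from DN to DP (limma adjusted p = 0.0195), a call lost without DN replicate 3, without DP replicate 2 or 3, and under quantile normalization. Rps29 gave 0.16 ± 0.07 in DP minus DN and was not called (adjusted p = 0.115).

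The paralog symbols differed among themselves. Rps27l, a paralog of Rps27 that p53 induces, read 1.21, 1.09 and 1.06 in DN, 0.11, 0.05 and -0.16 in DP, -0.23, -0.43 and -0.38 in CD4SP, and -0.11, 0.24 and 0.20 in CD8SP. The DN arrays lay above and the CD4SP arrays below all others, and DP and CD8SP overlapped. It fell by 1.12 ± 0.11 from DN to DP (limma adjusted p = 2.31e-05), with its 3 probe sets between -1.17 and -1.08. From DP to CD4SP it fell by 0.35 ± 0.11 (adjusted p = 0.0375). That call was lost under quantile normalization and without DN replicate 2, DP replicate 1 or 2, or CD4SP replicate 2 or 3.

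Rpl7l1, a paralog of Rpl7 that works in assembly of the large subunit, was highest on the DN arrays. It read 0.74, 0.60 and 0.58 in DN, 0.08, 0.01 and -0.10 in DP, 0.02, -0.10 and 0.01 in CD4SP, and -0.11, -0.02 and 0.03 in CD8SP. It fell by 0.64 ± 0.08 from DN to DP (limma adjusted p = 0.000128), while Rpl7 gave -0.06 ± 0.07 (adjusted p = 0.502). From DP, Rpl7l1 gave -0.02 ± 0.08 in CD4SP and -0.03 ± 0.08 in CD8SP. Its 3 probe sets ran from -0.28 to 0.14 in CD4SP minus DP, and 1 of them was called lower. Rps19bp1 fell by 0.93 ± 0.10 from DN to DP (adjusted p = 3.46e-05), with -0.11 ± 0.10 and 0.19 ± 0.10 from DP to CD4SP and CD8SP, neither called.

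The X-linked Rpl39, at the tunnel exit, fell by 0.35 ± 0.09 from DN to DP (limma adjusted p = 0.0131; lost without DP replicate 3 and under quantile normalization) and rose by 0.44 ± 0.09 to CD4SP and 0.47 ± 0.09 to CD8SP. Its paralog Rpl39l, known from testis, gave 0.06 ± 0.16, 0.15 ± 0.16 and 0.11 ± 0.16, with no call. Rpl3l, known from muscle, gave -1.59 ± 0.71 in DP minus DN, with single values from -0.93 to 2.36 in CD8SP alone, and Rps4l gave -1.36 ± 0.58; neither was called (adjusted p = 0.107 and 0.0917). The X-linked Rps4x gave 0.58 ± 0.27 (adjusted p = 0.124), and its 2 probe sets gave -0.16 and 1.33.

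Against DN, fewer of the genes were called than between DN and DP. CD4SP had 0 genes called higher (22.6% of all genes; 1 at an unadjusted limma p under 0.05) and 7 lower (21%), and CD8SP had 2 higher (18.7%) and 6 lower (22.3%), with medians of -0.07 and -0.05. With array medians subtracted 14 genes were called lower in CD4SP than in DN, and with array weights 11. These comparisons share the DN arrays. In both subsets Rpl14, Rps27l, Rps19bp1 and Rpl7l1 were called lower than in DN, as were the means of Rps20 and Rps3, whose probe sets disagree, and Rpl41 was called lower in CD4SP (-0.29 ± 0.10); CD4SP minus CD8SP of Rpl41 was -0.21 ± 0.10 (limma adjusted p = 0.197). The call of Rps3 in CD8SP was lost without any 1 DN array, DP replicate 2 or 3, CD4SP replicate 3, or CD8SP replicate 1 or 2, and that of Rpl41 without DN replicate 1 or 2 or any 1 CD4SP array. Rpl14 gave -1.56 ± 0.14 and -1.02 ± 0.14, and Rps27l -1.47 ± 0.11 and -1.01 ± 0.11. In CD8SP, Rpl37 was higher than in DN by 0.39 ± 0.11 (limma adjusted p = 0.0142; lost without CD8SP replicate 3) and Rps27 by 0.22 ± 0.07 (adjusted p = 0.0297; lost without any 1 of the DN arrays or CD8SP replicate 1 or 2).

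CD4SP and CD8SP differed in 3 of the 47 genes, all lower in CD4SP (4.91% of all genes), and 0 were higher (7.78%; 0 at an unadjusted limma p under 0.05). The share of the 47 genes called lower, 6.38%, was near that of all genes. Rpl14 differed by -0.54 ± 0.14 (limma adjusted p = 0.0311), Rpl37 by -0.51 ± 0.11 (adjusted p = 0.0111) and Rps27l by -0.46 ± 0.11 (adjusted p = 0.0243). On each of these the 3 CD4SP arrays lay below the 3 CD8SP arrays. The number of genes called lower went from 3 to 1 without CD4SP replicate 2 or 3 or CD8SP replicate 2 or 3, and to 5 without CD8SP replicate 1. Rpl37 was called with any 1 array left out, and the call of Rpl14 was also lost without CD4SP replicate 1. With only these 6 arrays in the fit, none of the 3 was called (adjusted p = 0.0799, 0.0575 and 0.0828).

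Of the 102 probe sets, 70 have identifiers with a suffix (_x_at, _s_at or _a_at) that marks probes shared between transcripts, which for ribosomal proteins can include near-identical processed pseudogenes. Without them 25 of the 47 genes remained, of which 15 were called lower in DP than in DN, against 16.8% of genes so measured, and the median was -0.64. In CD4SP and CD8SP 11 and 11 were called higher than in DP (15.2% and 17%). Probe sets of the same gene differed in DP minus DN by a median range of 0.5 over the 23 genes with more than 1. Rps3, of the messenger RNA entry channel, had probe sets called in opposite directions from DN, at -1.46 and 0.50 in CD4SP and at -1.11 and 0.51 in CD8SP, so its gene mean has no single direction there.

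**Figure D4:**
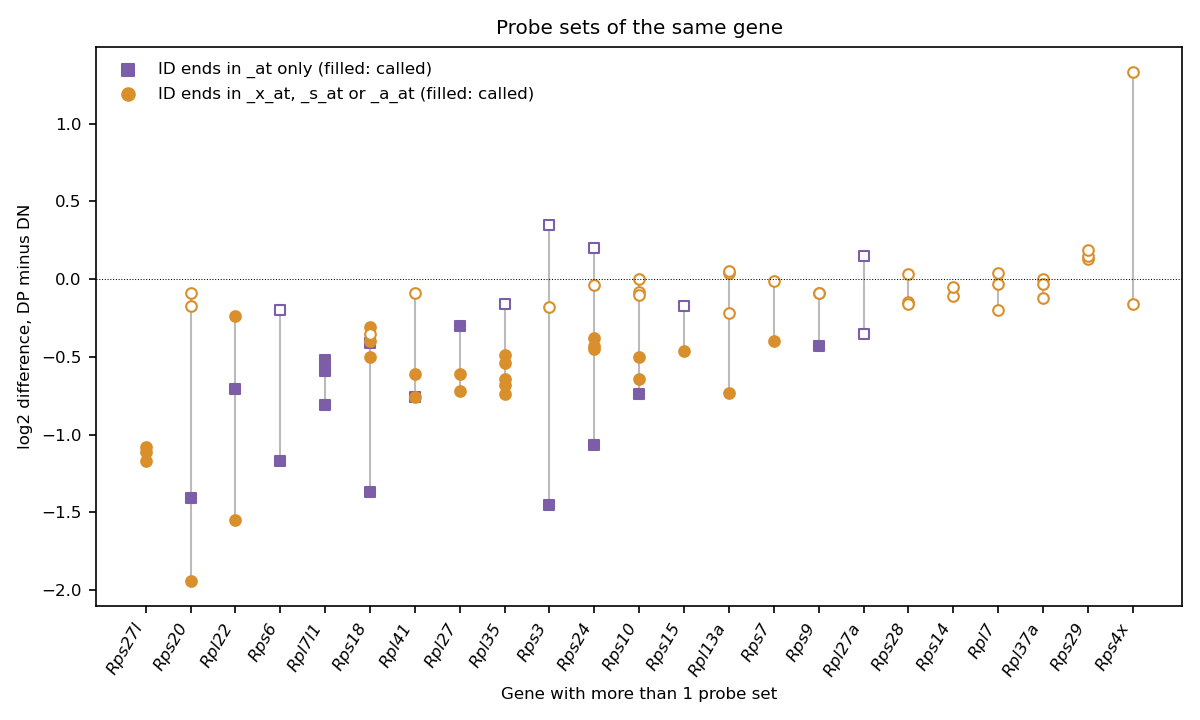
DP minus DN (log2) of each probe set of the 23 ribosomal protein genes with more than 1, joined by a line per gene; filled marks are called and shapes give the kind of identifier. The 3 probe sets of Rps27l lie between -1.17 and -1.08, whereas those of Rps20 run from -1.94 to -0.09.

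Quantile normalization lowered the counts: 17 genes were called lower in DP than in DN, and 8 and 9 higher in CD4SP and CD8SP than in DP, when 9.22%, 6.91% and 6.79% of all genes were so called. The SD over genes is 0.19 to 0.21 on the DP arrays and 0.67 to 0.83 on the others, since the DP mean was subtracted, and that method gives all arrays one distribution. Without CD8SP replicate 1 and DN replicate 1 the counts were 31, 23 and 25.

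Genes that make ribosomes were lower in DP as well. The lists of related genes were also chosen with earlier results known. Of 34 measured genes of ribosome assembly and ribosomal RNA processing, 32 were called lower in DP than in DN and 1 higher (18.8% and 17.8% of all genes), with a median of -1.28. In CD4SP 19 were called higher than in DP and 2 lower (16.4% and 16.2%; median 0.38), and in CD8SP 25 higher and 1 lower (18.2% and 20.9%; median 0.67). Of the 34, 33 and 31 were called lower in CD4SP and CD8SP than in DN (21% and 22.3% of all genes), where 7 and 6 of the 47 ribosomal protein genes were; the difference between the lists was not tested.

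Rrp1b gave -1.82 ± 0.07, 1.24 ± 0.07 and 1.45 ± 0.07 in DP minus DN, CD4SP minus DP and CD8SP minus DP. Dkc1, the pseudouridine synthase of H/ACA particles, gave -1.82 ± 0.08, 0.56 ± 0.08 and 0.92 ± 0.08. Utp20 and Nop2 were lower in DP than in DN by log2 differences of -2.11 ± 0.09 and -1.94 ± 0.09. Wdr12, of the PeBoW complex, went against the list: it rose by 0.39 ± 0.13 to DP (limma adjusted p = 0.0331) and fell by 1.41 ± 0.13 and 1.68 ± 0.13 to CD4SP and CD8SP.

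Of 11 RNA polymerase I genes, 6 were called lower and 0 higher in DP than in DN (18.8% and 17.8% of all genes; median -0.51). In CD4SP and in CD8SP 4 were called higher than in DP (16.4% and 18.2%) and 1 lower (16.2% and 20.9%), with medians of 0.04 and 0.14. The gene called lower was Taf1c, of the promoter selectivity factor SL1, at -0.86 ± 0.18 and -0.99 ± 0.18. Polr1b, the second largest subunit of RNA polymerase I, read 2.45, 2.42 and 2.45 in DN and fell by 2.44 ± 0.10 to DP (limma adjusted p = 5e-08). Of 7 genes listed under translation elongation, 4 were called lower and 0 higher in DP than in DN (18.8% and 17.8% of all genes). In CD4SP 2 were called higher than in DP and 0 lower (16.4% and 16.2%), and in CD8SP 3 higher and 1 lower (18.2% and 20.9%). The largest falls to DP were those of Eef1e1 (-1.59 ± 0.12) and Eef1b2 (-0.99 ± 0.09). Eef1a1, Eef2 and Tpt1 went the other way without a call, with DN means of -0.17, -0.37 and -0.16 relative to DP. Of 4 ribosomal proteins named outside the symbol rule, Rpsa was called lower in DP than in DN (-0.45 ± 0.08), whereas the stalk proteins Rplp0 and Rplp2 and the precursor gene Fau gave 0.08, -0.05 and 0.06, with no call.

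Of 14 regulators of TOP messenger RNAs and mTORC1, 7 were called lower in DP than in DN and 1, the S6 kinase gene Rps6kb2, higher (0.78 ± 0.12), against 18.8% and 17.8% of all genes. In CD4SP 3 were called higher and 4 lower than in DP (16.4% and 16.2% of all genes), and in CD8SP 3 higher and 6 lower (18.2% and 20.9%). The median was -0.15 in each, so the list as a whole did not lie higher again. Myc, a transcription factor that drives ribosome synthesis, read 3.50, 3.76 and 3.86 in DN, 0.02, 0.02 and -0.04 in DP, 2.06, 2.11 and 2.39 in CD4SP, and 2.25, 2.78 and 2.86 in CD8SP. DP lay far below the other 3 subsets, and DN above them. Larp1 gave -1.26 ± 0.08 from DN to DP, 0.25 ± 0.08 to CD4SP and 0.38 ± 0.08 to CD8SP. Mycn fell by 0.54 ± 0.12 to DP and by 1.79 ± 0.12 and 1.84 ± 0.12 from DP to CD4SP and CD8SP. Among 5 genes of ribosomal stress and p53, Zmat3 and Mdm2 rose by 1.51 ± 0.12 and 0.79 ± 0.09 from DN to DP, and Cdkn1a fell by 1.07 ± 0.18.

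**Figure D5:**
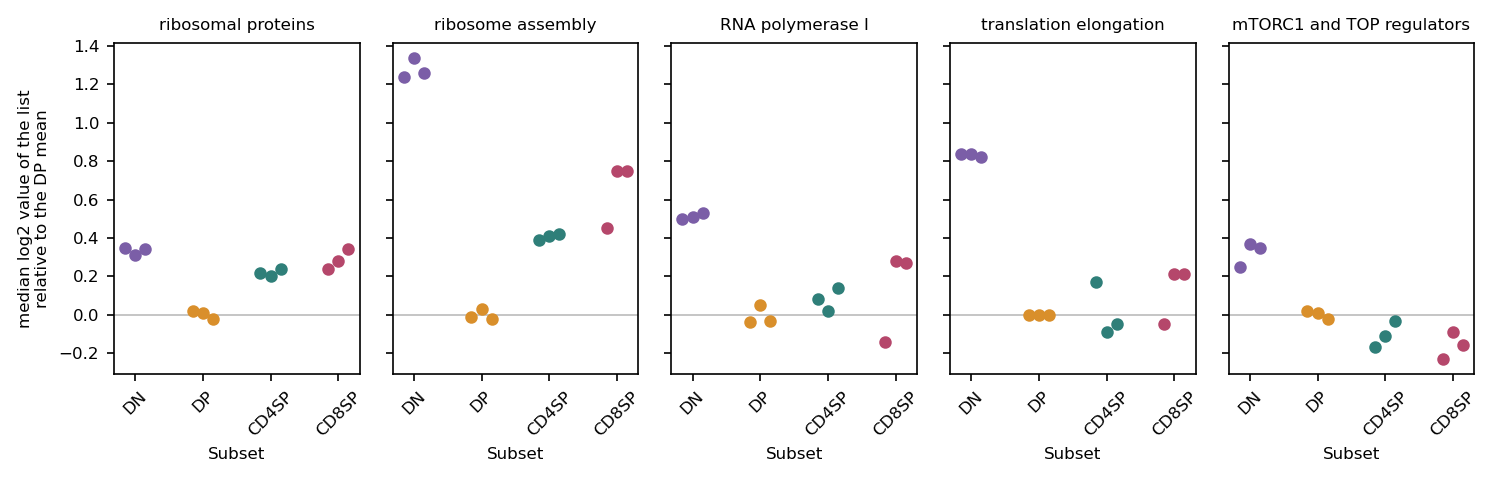
Median log2 value relative to the DP mean, on each array, of the 47 ribosomal protein genes and 4 related lists. The median of the ribosomal protein genes is 0.31 to 0.35 in DN, 0.20 to 0.24 in CD4SP and 0.24 to 0.34 in CD8SP, and that of the assembly genes is 1.24 to 1.34 in DN and at most 0.75 in the other subsets.

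Over the 12 arrays, 26 of the 47 genes had a Pearson correlation of 0.8 or more with the mean of the others, with a median of 0.82. It was below 0 for 5 genes: Rps29 (-0.75), Rps27 (-0.70), Rps4x (-0.56), Rpl39l (-0.15) and Rpl19 (-0.06). Rpl8 and Rpl22 were highest, at 0.99 and 0.98. The genes outside the set whose values were most like its mean over the 12 arrays were Fam136a, Cd3eap, Tsr1, Aprt, Prmt3, Ttc27, Qtrt2, Myc, Pus7l and Polr1c, with correlations from 0.987 to 0.976. These are descriptions: all points share the centring on DP, and the 12 arrays are 4 groups of 3.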

How the data were processed

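The authors deposited 1 log value per probe set and array, read here as log2, although the sources used here do not state the base. Per the submitters' processing notes, which give neither version nor role, MAS5 is the tool named. In the deposited table the mean of the 3 DP arrays has been subtracted from every probe set (largest absolute DP mean 1.27e-06), so levels and signal over background are lost, and no background correction, filter on dim probe sets or slide block could be tried. The number of arrays limits the precision.

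Of 45101 probe sets, 34958 had 1 gene symbol in the platform annotation, 932 had several and 9211 had none. Without 64 control probe sets, 34945 were averaged to 18193 genes. Gene IDs of 34741 probe sets were in a RefSeq table of GRCm38.p6, and 0 symbols were updated. Another 109 probe sets carry a ribosomal protein symbol among several and stand outside the 47 genes. Some ribosomal protein genes have no probe set of their own here and were not analysed here.

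The 4 group means were estimated from all 12 arrays in R 4.3.3 with limma 3.58.1, using lmFit, contrasts.fit and eBayes without a trend. P-values are two-sided, Benjamini-Hochberg adjusted over all genes in each of 6 comparisons, and called under 0.05; the script was tested on simulated data. Named are, per comparison, up to 8 called genes with the largest rise and fall, the paralog pairs, Rps19bp1, genes with probe sets called in opposite directions, the 10 most alike genes outside the set, and up to 4 called genes of each related list with the lowest adjusted p; genes named beyond this rule (such as those with near-constant values, the wide-spread ones, and Rplp0, Rplp2 and Fau) were chosen after their values were seen. The members, the lists and the tests were chosen with earlier results of these data known. Alternatives were the probe set of smallest spread, no suffixed probe sets, array medians subtracted, quantile normalization, array weights, a variance trend, a replicate block, only the arrays compared, and each array left out.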

Additional observations from a re-analysis of the deposited data

Results flagged for a closer look

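The change from DP differed between the single-positive subsets on 3 of the 47 genes, by the test of CD4SP against CD8SP itself (limma). All 3 were lower in CD4SP (6.38%, near the 4.91% of all genes), and 12.7% of all genes were called in either direction. The count therefore does not set the ribosomal protein genes apart from all genes. Rpl14 was lower in CD4SP by a log2 difference of -0.54, Rpl37 by -0.51 and Rps27l by -0.46. On each gene the 3 CD4SP arrays lay below the 3 CD8SP arrays. The calls depend on the spread shared with the DN and DP arrays, since none passed with only the 6 arrays compared.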

How the results depend on the processing

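Counts below are of the 47 ribosomal protein genes, and a count was taken as moved where it changed by over 1.5 times. Of the called differences, 15 of 30 in DP minus DN, 7 of 22 in CD4SP minus DP, 8 of 23 in CD8SP minus DP, 0 of 3 in CD4SP minus CD8SP, 4 of 7 in CD4SP minus DN and 4 of 8 in CD8SP minus DN were called under every alternative run. The variance trend moved none of the 18 counts and medians.

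With the probe set of smallest spread the medians were -0.27 in DP minus DN, 0.17 and 0.19 in CD4SP and CD8SP minus DP, and -0.03 in CD4SP minus DN, 2 genes were lower in CD4SP than in DP, and the differences turned for Rpl13a in DP minus DN (0.05), Rpl41 in CD8SP minus DP (-0.08) and Rps20 in CD4SP and CD8SP minus DN (0.12 and 0.16). Without suffixed probe sets, 22 of the 47 genes gave no value; of the rest 15 were lower in DP than in DN (median -0.64), 0 lower and 11 higher in CD4SP than in DP (0.32), 11 higher in CD8SP than in DP (0.41), 1 lower in CD4SP than in CD8SP, and 1 higher in CD8SP than in DN, with medians of -0.21 and -0.13 for CD4SP and CD8SP minus DN. With array medians subtracted the medians were -0.37 (DP minus DN), 0.20 (CD4SP minus DP) and -0.13 (CD4SP minus DN), 14 genes were lower in CD4SP and 1 higher in CD8SP than in DN. Quantile normalization gave 17 genes lower and 0 higher in DP than in DN (-0.29), 0 lower and 8 higher in CD4SP than in DP (0.18), 9 higher in CD8SP than in DP (0.25), 0 lower in CD4SP than in CD8SP and 0 higher in CD8SP than in DN. Array weights gave 1 gene lower in CD8SP than in DP (median 0.24), 5 lower in CD4SP than in CD8SP, and 1 higher and 11 lower in CD4SP than in DN. Without DN and CD8SP replicate 1 the medians were 0.25 (CD8SP minus DP) and -0.09 (CD4SP minus DN), with 1 gene higher in CD8SP than in DN. With only the 6 arrays compared, 0 were lower in CD4SP than in CD8SP. The causes of these changes, the missing genes and the widened DP arrays among them, were not tested.

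The replicate numbers were not taken as pairing the arrays, since not every pair of the same number correlated above 0.1. Deviations from the group means correlated from 0.11 to 0.16 among arrays numbered 1, from -0.03 to 0.09 among those numbered 2, from 0.02 to 0.14 among those numbered 3, and from -0.16 to 0.08 between different numbers. As a hint from the data, 11 of 12 arrays correlated best with one of their own number. With the number as a block, the count lower in CD4SP than in DP went from 1 to 0 (Rps27l, limma adjusted p = 0.0539), and the other 17 of 18 results did not move.

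Leaving out each array in turn gave 25 to 31 genes lower and 0 to 1 higher in DP than in DN (median -0.36 to -0.30), 0 to 1 lower and 17 to 23 higher in CD4SP than in DP (0.20 to 0.24), 21 to 25 higher and 0 lower in CD8SP than in DP (0.25 to 0.32), 0 higher and 1 to 5 lower in CD4SP than in CD8SP (-0.06 to -0.02), 0 to 1 higher and 6 to 10 lower in CD4SP than in DN (-0.09 to -0.06), and 1 to 3 higher and 5 to 7 lower in CD8SP than in DN (-0.06 to 0).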

Other observations

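The 109 probe sets that carry a ribosomal protein symbol beside other symbols, which were looked at after the other values were seen, gave the following counts in a fit over all probe sets (limma, adjusted p under 0.05). In DP minus DN 1 was higher and 65 were lower (19.7% and 15.4% of all probe sets). In CD4SP minus DP 58 were higher and 1 lower (13.6% and 14.7% of all probe sets), and in CD8SP minus DP 66 were higher and 2 lower (15.1% and 20.9%). Their median differences were -0.33, 0.33 and 0.35. The annotation does not tie them to 1 gene, so none is named.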
